A study of Homo sapiens with 6 samples.

Results

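The aryl hydrocarbon receptor axis was followed in PANC-1 cells, an established human pancreatic carcinoma line, given Schisandrin B, a lignan of Schisandra fruit. Its 9 genes were taken by symbol from the deposited table of 63241 genes: the receptor AHR, its partners ARNT and ARNT2, the repressor AHRR, the feedback enzyme TIPARP, the cytochromes CYP1A1, CYP1A2 and CYP1B1, and the aldehyde dehydrogenase ALDH3A1. All 9 symbols were found, each once. Cells labelled wild type received 20 µM Schisandrin B for 24 h (3 libraries) or a vehicle of under 0.1% DMSO for the same time (3 libraries). The labels name a single line and do not say whether the replicates came from separate cultures, so p-values measure the spread between these libraries, which may be technical.

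AHR is a transcription factor that waits in the cytoplasm with HSP90 and other chaperones until it binds a ligand, such as a dioxin, a plant compound or a tryptophan breakdown product. It then enters the nucleus, pairs with ARNT and binds xenobiotic response elements, whose core reads GCGTG. CYP1A1, CYP1A2 and CYP1B1 are its classical targets and oxidise many of its ligands. AHRR, which competes for ARNT, and TIPARP, which ADP-ribosylates the receptor, are also targets and switch the pathway off again.

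The core element can be seen in the RefSeq promoters (GRCh38.p14) of genes that changed, which are printed for that reason. Of the 9 members, 6 matched the promoter table, and ARNT2, CYP1B1 and ALDH3A1 did not. Each line gives the 250 bases before a start, 5′ to 3′ on the gene's strand, with capitals marking GCGTG or its reverse complement CACGC.
AHRR, chr5:321464-321713, plus strand: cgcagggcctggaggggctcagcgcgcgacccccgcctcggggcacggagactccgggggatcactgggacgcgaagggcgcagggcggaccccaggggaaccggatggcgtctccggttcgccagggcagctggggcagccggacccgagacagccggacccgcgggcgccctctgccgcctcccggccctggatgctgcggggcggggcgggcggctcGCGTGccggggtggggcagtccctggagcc
TIPARP, chr3:156674340-156674589, plus strand: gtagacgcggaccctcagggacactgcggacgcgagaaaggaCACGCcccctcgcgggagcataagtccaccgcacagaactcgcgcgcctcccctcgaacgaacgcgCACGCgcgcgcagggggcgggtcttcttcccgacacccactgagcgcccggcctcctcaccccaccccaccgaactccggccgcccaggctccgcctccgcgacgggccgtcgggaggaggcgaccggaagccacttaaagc
CYP1A1, chr15:74725529-74725778, minus strand: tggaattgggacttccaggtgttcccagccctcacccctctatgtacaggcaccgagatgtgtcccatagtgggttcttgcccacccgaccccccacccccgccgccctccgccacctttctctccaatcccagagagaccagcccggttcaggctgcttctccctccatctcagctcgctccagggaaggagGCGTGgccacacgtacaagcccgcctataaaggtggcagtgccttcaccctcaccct
The AHRR window held 1 match, beginning 30 bases before the start, and it was also a match to the longer form TNGCGTG. The TIPARP window held 2 matches, both on the other strand, and the CYP1A1 window held 1, beginning 57 bases before the start. A second AHRR start had 2 matches, whereas the other 2 TIPARP windows and the windows of AHR, ARNT and CYP1A2 had none. Searched on both strands, the core was present in 32.2% of 35116 promoter windows of this length and the longer form in 4.52%. A match is a run of letters and was not tested for binding.

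With Schisandrin B, CYP1B1 rose 2.77-fold, AHRR 2.00-fold and TIPARP 1.46-fold. CYP1A1 was the 1 member called lower, at 2.50-fold, and it entered the test through its vehicle libraries alone, so it could only be called in that direction. AHR and ARNT did not pass the test. ARNT2 and ALDH3A1 had too few counts to be tested, and CYP1A2 had none. A call was an adjusted p under 0.05 in edgeR's quasi-likelihood test, with Benjamini-Hochberg adjustment across the 15773 genes that passed a low-count filter. Of 6 members tested, 3 were higher and 1 was lower. Of all genes tested 70.2% were called, 35.0% higher and 35.2% lower. Calls were thus common throughout the table, and the members' count does not stand apart from it. The CPM values of the 2 groups lay apart without overlap for 73.5% of all genes tested.

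The libraries held 13667700 to 16045095 counts in Schisandrin B and 13656826 to 18289410 in vehicle. Log2 values of CPM (counts scaled to library size, with TMM factors) had a Pearson's r of 0.986 to 0.988 within groups and 0.921 to 0.929 between groups, across genes, which are not independent replicates. Of 6 genes listed as markers of these carcinoma cells, VIM is a mesenchymal rather than an epithelial gene. KRT7 was near absent, with 2 counts in all of the Schisandrin B libraries and 8 in all of the vehicle libraries. The other 5 were abundant and fell: SOX9 2.86-fold, KRT8 2.67-fold, KRT19 2.08-fold, KRT18 1.64-fold and VIM 1.22-fold. The sum of all 6 was 9254.2 to 9789.6 CPM in Schisandrin B and 12187 to 12668.4 CPM in vehicle. Most of it was VIM, at a mean of 8832.1 CPM in Schisandrin B and 10796.2 CPM in vehicle. The part of these marker differences in the results was not tested. Markers of blood, acinar, islet and liver cells summed to under 1 CPM in every library. Of 3 endothelial markers PECAM1 had 0 counts in Schisandrin B and 2 in vehicle, and CDH5 averaged 1.29 CPM in Schisandrin B and 12.9 CPM in vehicle, and its part in the results was not tested either. In bulk RNA, fewer cells that express a gene and less RNA per cell cannot be told apart.

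**Figure D1:**
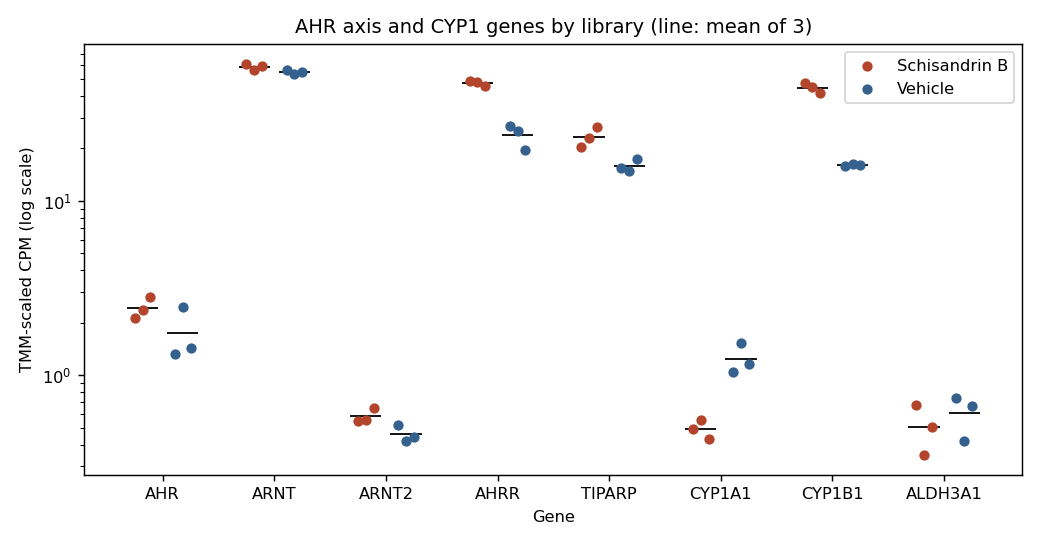
Abundance of 8 members in each library, as TMM-scaled CPM on a log axis, with Schisandrin B (red) left of vehicle (blue) and the mean of 3 libraries as a line. CYP1B1, AHRR and TIPARP lie higher in all 3 Schisandrin B libraries, CYP1A1 lies lower, and CYP1A2, at 0 counts, cannot be drawn.

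The receptor itself was scarce. AHR (ENSG00000106546, chromosome 7, 16916359 to 17346152 on GRCh38) had 35, 34 and 39 counts in Schisandrin B and 18, 35 and 26 in vehicle. These were 2.14, 2.37 and 2.80 CPM in Schisandrin B, against 1.33, 2.45 and 1.44 CPM in vehicle. The groups overlapped through vehicle replicate 2, which stood as high as the treated libraries. The log2 fold change was 0.49 (SE 0.27) with an adjusted p of 0.124 in edgeR's test. Without vehicle replicate 2 it was 0.79 and passed, with an adjusted p of 0.0255, so 1 control library decides this call.

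ARNT, the partner that AHR shares with the hypoxia factors, was the most abundant member. It had 61.4, 56.6 and 59.1 CPM in Schisandrin B, against 56.2, 53.2 and 54.7 CPM in vehicle. The treated libraries all lay slightly above the vehicle libraries, as the groups of 73.5% of all tested genes lay apart in one direction or the other. The log2 fold change of 0.11 (SE 0.06) had an adjusted p of 0.0859 in edgeR's test. It passed at 0.15 with library totals in place of TMM (adjusted p = 0.025), at 0.19 among genes with at least 5 CPM in 3 libraries (adjusted p = 0.00475), and at 0.15 without Schisandrin B replicate 2 (adjusted p = 0.0355). CTSK, a cathepsin gene whose annotation ends 136 bases from that of ARNT, rose 1.67-fold.

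ARNT2, a relative of ARNT known mainly from the nervous system, was almost absent. It had 9, 8 and 9 counts in Schisandrin B and 7, 6 and 8 in vehicle. At 0.584 ± 0.0543 CPM in Schisandrin B and 0.460 ± 0.0515 CPM in vehicle (SD, n = 3 each), the groups did not overlap. The groups also lay apart for 73.5% of all tested genes. For ARNT2 the two-sided p of an exact permutation was 0.1, and 3 libraries against 3 can give none smaller. The ratio of summed count rates was 1.31 (exact 95% interval 0.708 to 2.45, counting error alone), which spans equal rates. Within a library the log2 ratio of ARNT2 to ARNT counts averaged -6.58 ± 0.14 in Schisandrin B and -6.80 ± 0.12 in vehicle (SD, n = 3 each). An exact permutation test of that ratio gave p = 0.2, and 0.2 after adjustment over the 3 ratios compared.

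AHRR, the repressor, was higher in every treated library. AHRR (ENSG00000063438, chromosome 5, 321714 to 438291) had 794, 693 and 637 counts in Schisandrin B and 363, 360 and 353 in vehicle. These were 48.5, 48.2 and 45.8 CPM in Schisandrin B, against 26.9, 25.2 and 19.6 CPM in vehicle. The groups stood well apart, and vehicle replicate 3 was the lowest library. The log2 fold change was 1.00 (SE 0.10, adjusted p = 2.85e-07 in edgeR's test).

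Vehicle replicate 3 also differed in how the locus was counted. PDCD6-AHRR, a gene annotated from 271670 to 438291 and so across the whole of AHRR, had 5, 13 and 0 counts in Schisandrin B. In vehicle it had 0, 11 and 185 counts, the last in replicate 3, where it took 34.4% of the counts of both genes together. Adding the 2 genes gave 48.8, 49.1 and 45.8 CPM in Schisandrin B, against 26.9, 25.9 and 29.8 CPM in vehicle. With the sum the vehicle libraries lay closer together, and the log2 fold change was 0.80 (adjusted p = 4.35e-08). This setting was chosen after the data were seen. Without vehicle replicate 3 the log2 fold change of AHRR alone was 0.86.

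**Figure D2:**
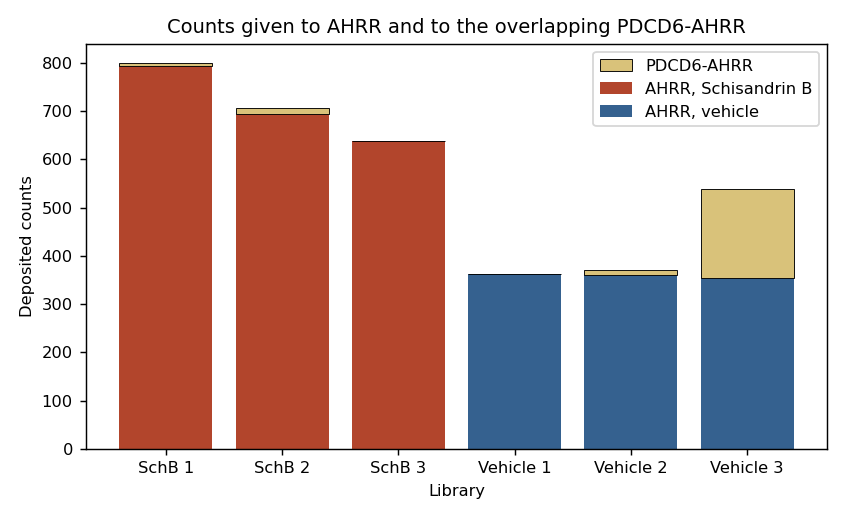
Deposited counts per library, with AHRR as red (Schisandrin B) or blue (vehicle) bars and the overlapping PDCD6-AHRR stacked in yellow. PDCD6-AHRR is 185 counts in vehicle replicate 3 and 13 or fewer elsewhere, and the stacked sums are 637 to 799 in Schisandrin B and 363 to 538 in vehicle, before scaling for depth.

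The log2 ratio of AHRR to AHR counts, repressor against receptor, was 4.48, 4.33 and 4.01 in Schisandrin B and 4.30, 3.34 and 3.74 in vehicle. The groups overlapped, and the difference of 0.48 had an exact permutation p of 0.2 (0.2 after adjustment over 3 ratios). Repressor counts thus exceeded receptor counts in all 6 libraries. PDCD6-AHRR counts, 185 of them in vehicle replicate 3, were not added to AHRR in this ratio, and their effect on it was not tested. By FPKM, which is scaled for length, AHRR stood at 7.97 ± 0.354 in Schisandrin B and 3.80 ± 0.563 in vehicle. AHR stood at 0.366 ± 0.051 FPKM in Schisandrin B and 0.229 ± 0.0755 FPKM in vehicle (SD, n = 3 each).

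TIPARP, also called PARP7, rose less than AHRR. TIPARP (ENSG00000163659, chromosome 3, 156673235 to 156706770) had 20.4, 23.1 and 26.7 CPM in Schisandrin B, against 15.5, 14.8 and 17.4 CPM in vehicle. All treated libraries lay above all vehicle libraries, and the treated ones were the more spread. The log2 fold change was 0.55 (SE 0.11, adjusted p = 0.000247 in edgeR's test). TIPARP-AS1, which overlaps the start of TIPARP on the other strand, had 14, 9 and 4 counts in Schisandrin B and 4, 7 and 7 in vehicle, too few to be tested.

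Among the CYP1 enzymes, CYP1B1 was higher with Schisandrin B and CYP1A1 lower, though CYP1A1 could only be called lower. CYP1B1 (ENSG00000138061, chromosome 2, 38066973 to 38109902), which hydroxylates estrogens and polycyclic hydrocarbons and is found outside the liver, had 774, 644 and 581 counts in Schisandrin B and 214, 234 and 291 in vehicle. In CPM these were 47.3, 44.8 and 41.8 in Schisandrin B, against 15.8, 16.4 and 16.1 in vehicle. The vehicle libraries were nearly equal and every treated library was far above them. The log2 fold change of 1.47 (SE 0.08) had an adjusted p of 4.17e-11 in edgeR's test, the smallest among the members.

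CYP1B1-AS1, annotated on the other strand from 38073447 to 38231651 and overlapping CYP1B1, had 55, 29 and 23 counts in Schisandrin B and 7, 17 and 18 in vehicle. It rose 2.58-fold, a log2 value of 1.37 with SE 0.34 and adjusted p = 0.00199 by edgeR. How strand was treated in the counting is not stated in the labels or headers, so reads of CYP1B1 and CYP1B1-AS1 cannot be told apart with certainty. RMDN2, which overlaps the other end of CYP1B1 by its annotation, rose 1.52-fold (adjusted p = 0.0174).

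CYP1A1 (ENSG00000140465, chromosome 15, 74719542 to 74725536), the most inducible of the family in many tissues, was scarce and lower after treatment. It had 8, 8 and 6 counts in Schisandrin B and 14, 22 and 21 in vehicle. These were 0.489, 0.557 and 0.431 CPM in Schisandrin B, against 1.04, 1.54 and 1.16 CPM in vehicle, with no overlap. The log2 fold change was -1.32 (SE 0.35, adjusted p = 0.00303 in edgeR's test). The ratio of summed count rates was 0.408 (exact 95% interval 0.238 to 0.678, counting error alone). CYP1A1 passed the low-count filter through its vehicle libraries alone, so it could enter the test only by being higher there.

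The authors' deposited table gives CYP1A1 a fold change of 0.385 with an adjusted p of 0.0585 and marks it as down. The same table gives CYP1B1 2.70-fold and marks it as up, and it gives AHRR 1.95-fold with an adjusted p of 6.56e-16 and no mark. DESeq2 on the counts gave CYP1A1 an adjusted p of 0.039.

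**Figure D3:**
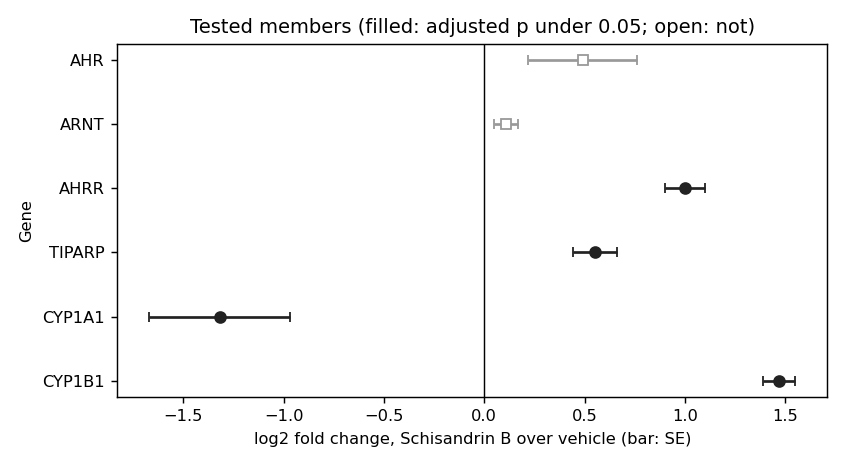
Log2 fold change of the 6 tested members, Schisandrin B over vehicle, with SE as bars and filled points for an adjusted p under 0.05. CYP1B1, AHRR and TIPARP lie right of 0 at 1.47, 1.00 and 0.55, CYP1A1 lies left at -1.32 with the widest bar, and AHR and ARNT are open.

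The 2 enzymes were also set against each other within each library, which needs no scaling between libraries. The log2 ratio of CYP1B1 to CYP1A1 counts was 6.51, 6.24 and 6.48 in Schisandrin B, against 3.89, 3.38 and 3.76 in vehicle. No values overlapped, and the difference of the means was 2.74. The exact two-sided permutation p was 0.1, the smallest possible with 3 against 3, and 0.2 after adjustment over the 3 ratios. CYP1A1 passed the low-count filter through its vehicle libraries alone. The ratio therefore describes these libraries and is no separate test of the CYP1A1 difference.

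CYP1A2, the liver member of the family, had 0 counts in all 6 libraries. With 44003460 counts in Schisandrin B and 46523252 in vehicle, a count of 0 allows up to 0.0682 CPM in Schisandrin B and 0.0645 CPM in vehicle, for counting error only. CYP1A2 lies beside CYP1A1 on chromosome 15, at 74748845 to 74756607, on the opposite strand.

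ALDH3A1, an aldehyde dehydrogenase known as an AHR target from rodent liver and hepatoma lines, had 11, 5 and 7 counts in Schisandrin B and 10, 6 and 12 in vehicle. The groups overlapped, at 0.508 ± 0.162 CPM in Schisandrin B and 0.608 ± 0.168 CPM in vehicle (SD, n = 3 each, exact permutation p = 0.6). The ratio of summed rates was 0.868, with an exact 95% interval of 0.478 to 1.56 for counting error alone, which spans equal rates. The length implied by its deposited FPKM ran from 1541 to 2992 bases between libraries, so its FPKM is less comparable than its counts.

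Ranked by mean FPKM, the order of the members differed between the groups. In Schisandrin B it ran ARNT (11.6), AHRR (7.97), CYP1B1 (7.78), TIPARP (5.31), AHR (0.366), ALDH3A1 (0.179), CYP1A1 (0.156), ARNT2 (0.0733) and CYP1A2 (0). There AHRR and CYP1B1 overlapped across libraries, as did ALDH3A1 and CYP1A1. In vehicle the order by FPKM was ARNT (10.6), AHRR (3.80), TIPARP (3.51), CYP1B1 (2.72), CYP1A1 (0.428), ALDH3A1 (0.291), AHR (0.229), ARNT2 (0.0583) and CYP1A2 (0). There AHRR overlapped TIPARP, and ALDH3A1 overlapped both CYP1A1 and AHR. CYP1B1 thus stood above TIPARP in Schisandrin B and below it in vehicle.

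For each tested member the protein-coding gene with the most similar profile was found by Pearson's r of log2 CPM over the 6 libraries, among 12466 genes. These were PPP1R15A for CYP1B1 (r = 0.9997), CHST10 for CYP1A1 (r = 0.9995), MAP1LC3B2 for AHRR (r = 0.9989) and ZNF7 for TIPARP (r = 0.9933). PRKD3 was nearest to ARNT (r = 0.9881) and RASGEF1A to AHR (r = 0.9853). The 6 libraries form 2 groups, so for members whose groups lay apart these values largely follow that difference. The AHR groups overlapped, so this does not hold for AHR. Each named gene had the highest r of 12466, and r does not compare the sizes of changes. The values describe these libraries only.

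Of 24 other genes reported as AHR targets, 13 had enough counts to be tested, of which 9 rose and 3 fell, where 35.0% of all tested genes were higher and 35.2% lower. ABCG2 and STC2 are among the 9 and passed the low-count filter through their Schisandrin B libraries alone, with every vehicle library under the filter's 0.693 CPM, so they could only be called higher. The median of the tested genes, ABCG2 and STC2 included, was 1.16 on the log2 scale, beside 0.000368 over all genes tested. As the list was chosen with earlier results of these data known, this median describes it and tests nothing. Only genes with enough counts are in this median, and 11 listed genes were under the filter, among them GSTA1, GSTA2 and CYP4F11 at 0 counts. SLC7A5 and SLC3A2, the 2 chains of a large neutral amino acid carrier, had the smallest adjusted p (3.59e-16 and 5.22e-14 in edgeR's test), with log2 fold changes of 1.89 and 2.46. SLC3A2 was also the most abundant listed gene by FPKM. EREG, an EGF receptor ligand, averaged 857 ± 46.6 CPM in Schisandrin B and 384.6 ± 15.4 CPM in vehicle (SD, n = 3 each). NFE2L2, the antioxidant factor NRF2, rose 1.67-fold. NQO1, a quinone reductase and classical AHR target, named after its value was seen, fell 1.53-fold. ABCG2, a drug efflux pump named after its value was seen, had 196 counts in Schisandrin B and 17 in vehicle, an 11.6-fold rise.

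Of 13 tested genes of the chaperone complex that holds the receptor and of its coactivators, 7 fell and 2 rose, and the median was -0.29 on the log2 scale. Together that is 9 of 13 called, where 70.2% of all tested genes were called, so the total does not stand apart from the table. By direction, 35.2% of all tested genes were lower and 35.0% higher. Whether the list's split by direction differs from this was not tested. HSP90AB1, the most abundant of them by FPKM, averaged 1632.6 ± 54.9 CPM in Schisandrin B and 2136.8 ± 61.3 CPM in vehicle (SD, n = 3 each). HSP90AA1 and the cochaperone PTGES3, or p23, fell by 0.56 and 0.58 on the log2 scale. SMARCA4, a chromatin remodelling ATPase used by AHR at its targets, fell by 0.89 (SE 0.05, adjusted p = 2e-11 in edgeR's test). The 2 that rose were the coactivators NCOA3, at a log2 fold change of 0.28, and EP300, at 0.15. The count of higher genes was 1 without vehicle replicate 2 and 1 without vehicle replicate 3.

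Relatives of AHR and ARNT with the same bHLH-PAS or PAS domains had 5 higher and 5 lower of 14 tested, near the 35.0% higher and 35.2% lower among all tested genes, and a median log2 fold change of 0.10. The clock genes PER3 and PER2 fell 1.54-fold and 2.10-fold, and BMAL2, a relative of ARNT in the clock, rose 1.74-fold. HIF1A, the hypoxia factor that also pairs with ARNT, averaged 178.2 ± 4.94 CPM in Schisandrin B and 223.5 ± 2.93 CPM in vehicle (SD, n = 3 each). NPAS2, the most abundant by FPKM, fell by 0.20 on the log2 scale. The 5 higher calls were 3 without Schisandrin B replicate 1, 3 without Schisandrin B replicate 3, 2 without vehicle replicate 3, 3 with DESeq2 and 2 at a threshold of 0.01 or with no low-count filter.

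Of 12 listed enzymes that make or use tryptophan-derived AHR ligands, 4 were tested and 8 were under the low-count filter. Among the 8, IDO1, IDO2, KYNU and KMO were at 0 counts in all libraries. Of the 4 tested, 1 was higher and 1 lower, with a median of -0.07 on the log2 scale. Among all tested genes 35.0% were higher and 35.2% lower, so these counts do not stand apart. AADAT, a kynurenine aminotransferase, rose 1.38-fold (log2 0.46, SE 0.16, adjusted p = 0.0178 by edgeR). AFMID, a kynurenine formamidase and the most abundant by FPKM, fell by 0.27 (SE 0.12, adjusted p = 0.0464 in edgeR's test). KYAT3 and KYAT1 had log2 fold changes of 0.13 and -1.14 with adjusted p of 0.183 and 0.215. The higher count of 1 was 0 without Schisandrin B replicate 1, without vehicle replicate 2 or without vehicle replicate 3. The lower count of 1 held without Schisandrin B replicate 3 and was 0 without any other single library. TDO2, which opens the tryptophan ring, was under the filter with 22 counts in Schisandrin B and 11 in vehicle.

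Outside the CYP1 family, 9 of 24 listed CYP2 and CYP3 enzymes and electron donors were tested, with 3 higher, 6 lower and a median log2 fold change of -0.74, where 35.0% of all tested genes were higher and 35.2% lower. POR, the reductase that feeds electrons to microsomal P450 enzymes, averaged 272.2 ± 20.5 CPM in Schisandrin B and 166 ± 4.86 CPM in vehicle (SD, n = 3 each). The cytochrome b5 genes CYB5B and CYB5A fell 2.11-fold and 3.54-fold, and their reductase CYB5R3 fell 1.76-fold. With no low-count filter 5 of these genes were higher. CYP3A4 and CYP2B6, drug-metabolising enzymes of the liver named after their values were seen, were at 0 counts in all libraries.

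Of 21 listed relatives of TIPARP and ALDH3A1, 18 were tested, of which 10 fell and 4 rose, with a median of -0.26 on the log2 scale. Over all tested genes 35.2% were lower and 35.0% higher. PARP1, the main poly(ADP-ribose) polymerase, and PARP9 fell 2.74-fold and 2.71-fold, and PARP6, named after its value was seen, rose 2.38-fold. ALDH1A1, a retinal dehydrogenase and the most abundant of the list by FPKM, averaged 226.8 ± 2.02 CPM in Schisandrin B and 747.8 ± 7.17 CPM in vehicle (SD, n = 3 each). ALDH3A2, the neighbour of ALDH3A1 on chromosome 17, fell 1.53-fold.

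**Figure D4:**
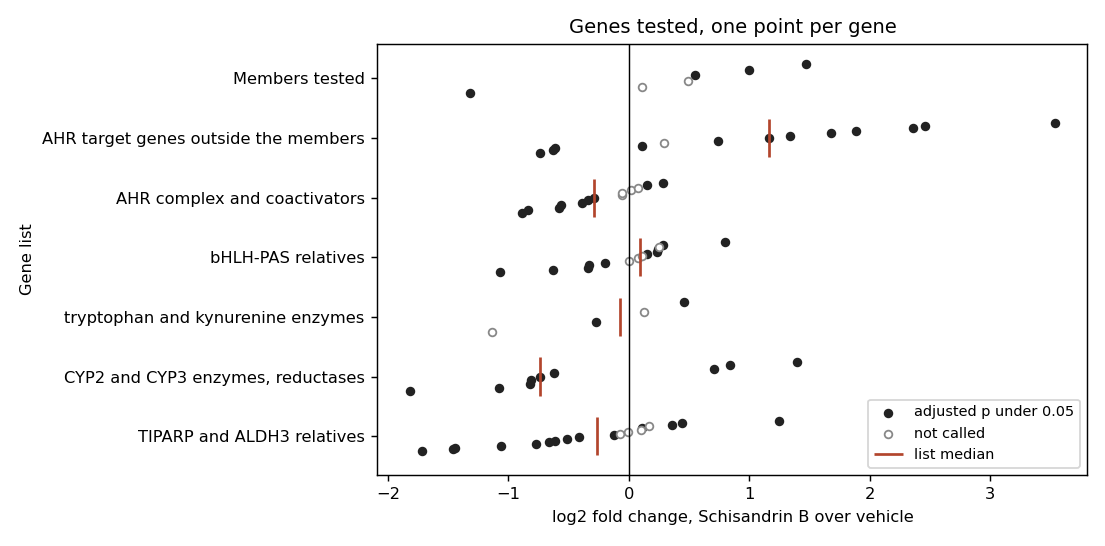
Log2 fold change, Schisandrin B over vehicle, of each tested gene in the members and the 6 lists, filled where the adjusted p is under 0.05, with each list's median as a red line (none for the members). Medians run from -0.74 for the CYP2 and CYP3 list to 1.16 for the other AHR targets. The latter includes ABCG2 and STC2, which passed the low-count filter through Schisandrin B alone and could only be called higher. Every list with calls holds genes on both sides of 0.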

How the data were processed

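RNA-seq libraries were made with a SMARTER mRNA kit after RNeasy extraction, per the labels, and their values came from 1 table. Per the file headers it gives counts, which are whole numbers for each Ensembl ID. The deposited FPKM are scaled by the authors for gene length and library size. The authors also deposited their own fold ratio (treated over control), its log2, and raw and adjusted p-values from a test that no label names. GRCh38 and mm10 are the builds in the submitters' processing notes. For aligner, counter and strand the sources used here give nothing. The length implied by counts and FPKM varied between libraries for some genes, and overlapping genes received uneven shares, so the counts may be estimates rounded to whole numbers.

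The fit to the counts ran under edgeR 4.0.16 (R 4.3.3): filterByExpr (minimum count 10, a CPM of 0.693 at these depths), TMM scaling, robust quasi-likelihood F-test, two-sided, Benjamini-Hochberg over 15773 genes, threshold 0.05. The SE is the log2 fold change divided by the square root of F. Ratios of 2 members used counts plus 0.5 and exact permutation. Alternatives were RLE scaling, library totals, no low-count filter, a stricter filter of 5 CPM in 3 libraries, limma voom 3.58.1, DESeq2 1.42.0, a threshold of 0.01, a replicate block and leaving out each library. In simulated counts for this comparison over 15432 genes edgeR recovered 59.1% of 66 genes changed 1.5-fold, 77.9% of 68 changed 2-fold and 100% of 64 changed 4-fold, with 9 calls among 15234 unchanged genes. The simulation left most genes unchanged, whereas 70.2% of all tested genes were called in the data. Its recovery and false calls therefore need not hold for this comparison. Same-group libraries were further apart than counting noise (chi-square per gene 3.73 to 5.87). Figures used matplotlib 3.10.9. Intervals and floors do not cover variation beyond counting.

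The members and 6 gene lists were chosen with earlier results of these data known. Named were all members and, in each list, up to 4 genes with the smallest adjusted p and the most abundant by FPKM, plus the 1 protein-coding gene with the most similar profile to each tested member. Neighbouring and overlapping genes were added by position. Promoter letters are from RefSeq, GRCh38.p14. Some list genes are counted but not reported here by name.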

Additional observations from a re-analysis of the deposited data

How the results depend on the processing

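CYP1B1, AHRR, TIPARP and CYP1A1 kept their direction and stayed past the threshold under each other scaling, filter, tool, threshold and left-out library that gave them a value. With 1 library left out, their log2 fold changes ran from 1.42 to 1.51, 0.86 to 1.08, 0.44 to 0.64 and -1.44 to -1.16. Among genes with at least 5 CPM in 3 libraries AHR and CYP1A1 were not tested, and the members called lower numbered 0. Leaving out 1 library gave 1 to 2 higher genes in the AHR complex list, 0 to 1 higher and 0 to 1 lower in the tryptophan list, and 2 to 5 higher among bHLH-PAS relatives. With no low-count filter, higher genes numbered 1 in the AHR complex list, 0 in the tryptophan list, 2 among bHLH-PAS relatives and 5 in the CYP2 and CYP3 list. At a threshold of 0.01 the higher counts were 1, 0 and 2 in the first 3 of these lists. The tryptophan list had 2 higher genes under the 5 CPM filter, and 0 lower genes there, with RLE scaling, with library totals, with DESeq2 and at 0.01. DESeq2 called 3 bHLH-PAS relatives higher. The cause of these shifts was not tested. Same-numbered libraries deviated with correlations across genes of 0.0337, -0.0527 and -0.0113 and were not taken as pairs. With the replicate block 3 members were higher and 1 lower, and 5469 genes in all were higher and 5504 lower, so it changed no member's call. CYP1A1 then had a log2 fold change of -1.32 (adjusted p = 0.00662 in edgeR's test). ARNT2, CYP1A1, ALDH3A1 and AHR rest on at most 108 counts per group, which limits their precision.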

Other observations

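The tested protein-coding genes nearest to the members, by the deposited coordinates, were compared in the same fit. Of all genes tested 70.2% were called, 35.0% higher and 35.2% lower, so calls among neighbours are common. Whether the neighbours differ from this share was not tested. Both neighbours of the CYP1A1 and CYP1A2 pair fell: EDC3, an mRNA decapping enhancer, 1.47-fold (log2 -0.56, SE 0.07, adjusted p = 1.67e-06 by edgeR), and CSK, a kinase that restrains SRC, 1.34-fold (log2 -0.43, SE 0.05, adjusted p = 2.05e-06 by edgeR). Beside ARNT2, FAH, the last enzyme of tyrosine breakdown, fell 1.86-fold and ABHD17C fell 1.62-fold. On the lower side of TIPARP, SSR3, a subunit of the translocon-associated complex, averaged 347.9 CPM in Schisandrin B and 135.7 CPM in vehicle, a 2.56-fold rise (adjusted p = 8.22e-14 by edgeR). LEKR1 on its other side had a log2 fold change of 0.35 (SE 0.31) with an adjusted p of 0.326. EXOC3, 4884 bases beyond AHRR, had 0.11 (SE 0.06, adjusted p = 0.101 in edgeR's test), and ATL2, the neighbour on the higher side of CYP1B1, had 0.06 (SE 0.06, adjusted p = 0.33 in edgeR's test). Around AHR, SNX13 rose 1.27-fold and TSPAN13 had a log2 fold change of -0.28 (adjusted p = 0.209 by edgeR). SETDB1 beside ARNT had -0.09 (adjusted p = 0.326 by edgeR), and ULK2 beside ALDH3A1 had 0.11 (adjusted p = 0.0601 by edgeR).

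PDCD6, whose annotation overlaps PDCD6-AHRR, had 1632, 1380 and 1286 counts in Schisandrin B and 1798, 1126 and 1753 in vehicle. Its log2 fold change of -0.10 (SE 0.22) had an adjusted p of 0.718 in edgeR's test.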
